A study of Mus musculus with 10 samples.

Results

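Ppbp, Pf4, Itga2b, Itgb3, Gp9, Gp1bb, Gp5 and Gp6 are genes of platelets and of megakaryocytes, the large marrow and spleen cells that shed them. The set was given as these 8 symbols out of 19505 genes with a symbol on the array, and 7 of the 8 had a probe set annotated to them, 1 each. Gp1bb had none and was not analysed here. Platelets carry little new transcription of their own and keep RNA from their parent cell, so both platelets and megakaryocytes can bring these transcripts into a tissue. In mice the spleen is a site of platelet production and storage, whereas lymph nodes are not known as one.

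RNA was measured on 10 single-colour Affymetrix arrays from C57BL/10 mice, per the labels, and the deposited values are log2 expression levels after RMA, the usual background correction and normalization for these arrays. In 4 spleen and 2 lymph node arrays the animals had received wild-type CD4+ T cells transduced with oncogenic Vav1, an activated form of a signalling protein of the T cell receptor pathway. In 2 lymph node and 2 spleen arrays they had received such cells transduced with GFP. All hosts were immunocompromised and were analysed 6 months after transfer. The 10 arrays came from 7 animals, of which CTL2, ONCO2 and ONCO3 gave both tissues. The labels name neither the host strain's defect nor the vector, the mutation or the cells that hosts still had.

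The labels call the RNA that of CD4+ T cells, but genes of other cells were abundant on every array. Ranked among all genes of an array, Cd79a of the B cell receptor ran from percentile 95.3 to 99.7. Lyz2, the lysozyme of myeloid cells, ran from 99.0 to 99.9, and Ms4a1, another B cell gene, from 90.3 to 98.2. The T cell genes Cd3e and Cd4 ran from 80.5 to 97.8 and from 73.5 to 93.1. In such mixed RNA, fewer cells of a type and less RNA per cell cannot be told apart. Vav1 itself was at 10.17 and 9.27 in oncogenic Vav1 lymph nodes, against 9.52 and 9.69 in GFP lymph nodes, and at 9.99 to 10.30 in oncogenic Vav1 spleens, against 9.63 and 9.83 in GFP spleens. The lymph node groups overlapped, and Vav1 did not pass limma's test in lymph node (adjusted p = 0.80) or spleen (adjusted p = 0.14). Whether its probes read the introduced form is not stated.

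The products of these genes are surface receptors of the platelet and chemokines that it stores. Ppbp and Pf4 encode chemokines stored in alpha granules and released on activation. Itga2b and Itgb3 encode the integrin that binds fibrinogen and links platelets to each other, Gp1bb, Gp9 and Gp5 belong to the receptor complex for von Willebrand factor, and Gp6 is the receptor for collagen. Their transcription in megakaryocytes is known to use GATA1 with its partner FOG1 (Zfpm1) and ETS family factors such as FLI1.

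The promoters of 4 genes are printed: Ppbp and Gp5, whose transcripts differed most clearly between the lymph node groups, Pf4, the gene next to Ppbp on chromosome 5, and Itga2b, whose transcript did not pass the test. Each shows the 250 bases before the annotated start, from RefSeq on GRCm38.p6, read along the gene. Capitals mark 3 kinds of motif, searched on both strands. A GATA motif is AGATAA, the form AGATAG that ends in G, or either with T in the first place, TGATAA and also TGATAG. An ETS motif is CCGGAA or, with another second base, CAGGAA, and the TATA box is TATAAA. A match on the other strand stands in the line as its reverse complement, TTATCT in Gp5 and TTCCTG in Itga2b.
Ppbp, chr5:90768268-90768517, plus strand: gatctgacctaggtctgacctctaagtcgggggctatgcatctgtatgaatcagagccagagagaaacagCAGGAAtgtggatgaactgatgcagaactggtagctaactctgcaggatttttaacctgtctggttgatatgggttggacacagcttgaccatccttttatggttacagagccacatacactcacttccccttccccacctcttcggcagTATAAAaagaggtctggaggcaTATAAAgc
Pf4, chr5:90772185-90772434, plus strand: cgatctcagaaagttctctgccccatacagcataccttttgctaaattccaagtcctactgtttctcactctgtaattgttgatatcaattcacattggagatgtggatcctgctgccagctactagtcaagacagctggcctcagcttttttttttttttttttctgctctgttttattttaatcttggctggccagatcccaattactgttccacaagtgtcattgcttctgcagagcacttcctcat
Gp5, chr16:30310782-30311031, minus strand: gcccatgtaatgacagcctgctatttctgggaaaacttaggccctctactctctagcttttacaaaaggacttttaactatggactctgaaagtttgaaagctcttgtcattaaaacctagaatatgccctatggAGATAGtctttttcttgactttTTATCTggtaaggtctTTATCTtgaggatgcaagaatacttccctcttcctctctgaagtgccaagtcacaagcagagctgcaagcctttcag
Itga2b, chr11:102469884-102470133, minus strand: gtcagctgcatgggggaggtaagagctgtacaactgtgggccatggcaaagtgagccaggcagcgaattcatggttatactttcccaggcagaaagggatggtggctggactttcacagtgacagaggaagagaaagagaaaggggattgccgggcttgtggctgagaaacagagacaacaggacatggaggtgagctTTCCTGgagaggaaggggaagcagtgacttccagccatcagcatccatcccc
Gp5 held 3 GATA matches, from -115 to -110, from -93 to -88 and from -77 to -72 before the start. Ppbp held 1 ETS match and 2 TATA boxes, at -30 to -25 and -8 to -3, Itga2b held 1 ETS match, and Pf4 held none of these letters. No matches overlapped. Among the 7 promoters found for the set, that of Itgb3 not being among them, 3 held a GATA match (Gp1bb, Gp5 and Gp6), 2 an ETS match and 1 a TATA box. Of all 32851 promoters of that length in the table, 26.5% held a GATA match, 35.1% an ETS match and 12.4% a TATA box. These matches are descriptions of the letters and no evidence of binding.

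Platelet transcripts were lower in the lymph nodes of GFP mice than in the other 3 groups. Both GFP lymph node arrays lay below all 8 other arrays for 7 of 7 genes, a pattern that 7.76% of the 13393 genes tested showed. With oncogenic Vav1, 6 of 7 genes rose in the lymph node, where 7.87% of all genes tested did, and 0 of 7 passed in the spleen, where 26.8% were called. Gp6, counted among the 7 and among the 6, entered the test only through oncogenic Vav1 arrays. The rises ran from 1.73-fold for Itgb3 to 34.3-fold for the chemokine Ppbp, whose GFP lymph node values were near background, here meaning below the 40th percentile of their arrays, so that its fold depends on the background level.

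**Figure D1:**
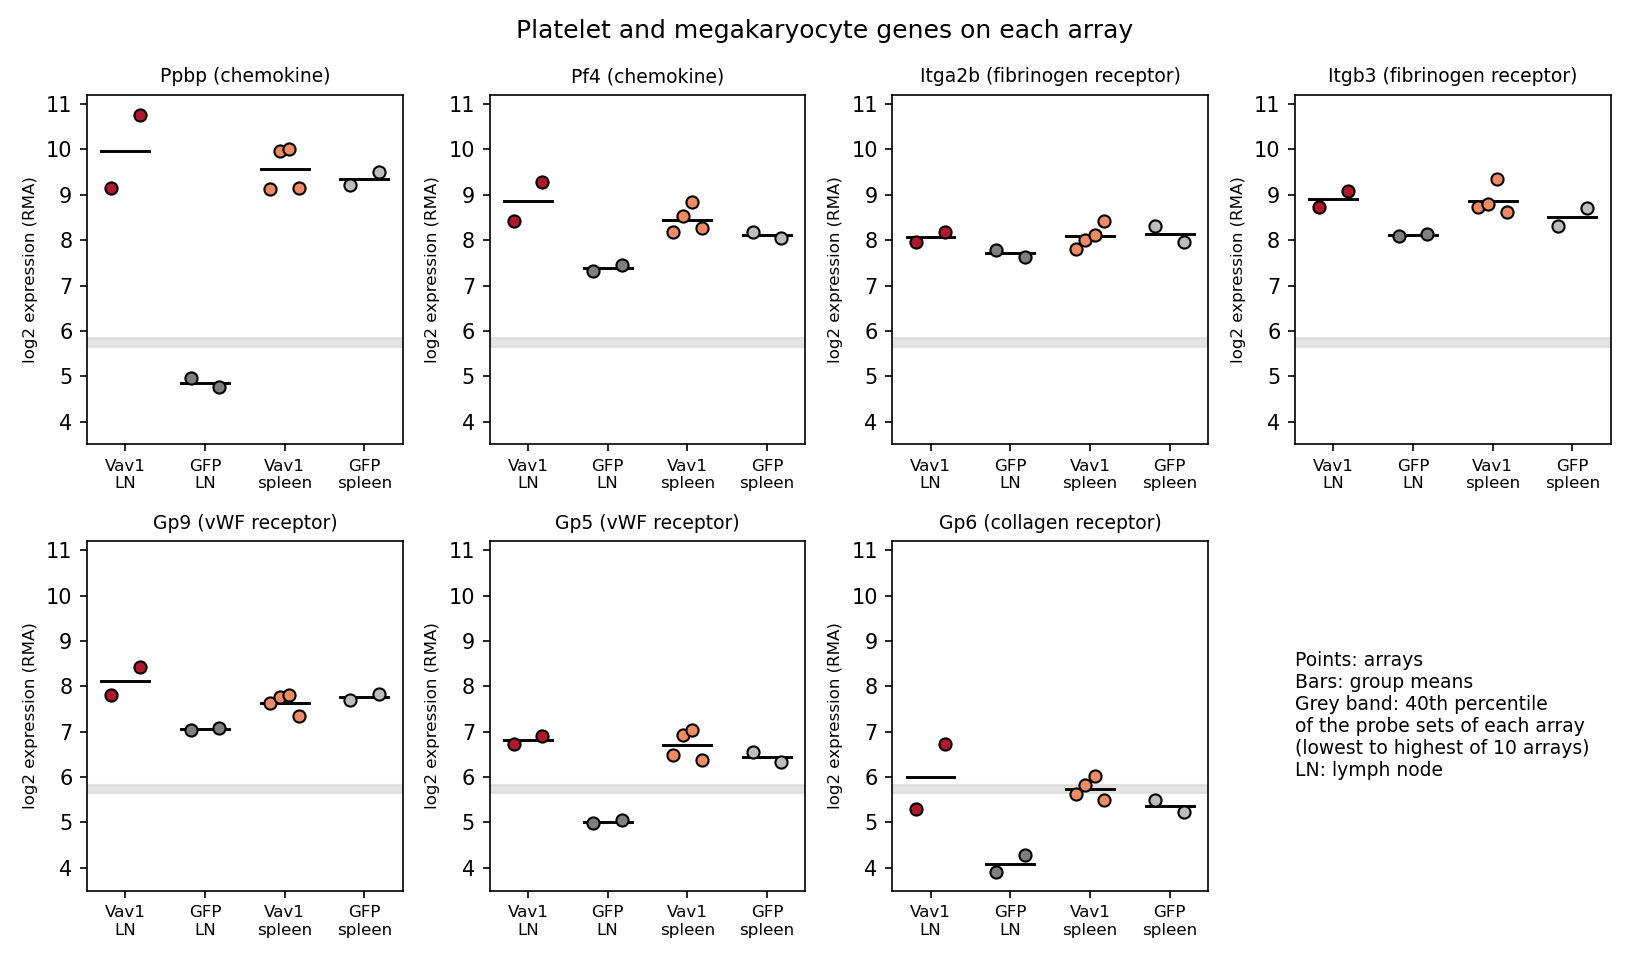
Log2 expression (RMA, vertical axis) of the 7 measured genes on each array, in oncogenic Vav1 lymph node (Vav1 LN), GFP lymph node (GFP LN), oncogenic Vav1 spleen and GFP spleen. Points are arrays, bars are group means, and the grey band is the range over arrays of each array's 40th percentile. The GFP lymph node points are the lowest of every panel, at 4.95 and 4.76 for Ppbp, where the other 8 arrays lie between 9.13 and 10.75.

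The comparison in the lymph node asks which of these transcripts differed where T cells with oncogenic Vav1 had been introduced. The test was limma's moderated test in a model of the 4 groups, with Benjamini-Hochberg adjustment over all genes tested, and 7.87% of all genes tested rose at adjusted p under 0.05. The median log2 difference was 1.48 over the 7 genes and -0.02 over all genes tested. All arrays of oncogenic Vav1 lay above all of GFP for 7 of 7 genes, which 24.2% of all genes tested also did with 2 arrays a side. The 7 include Gp6, which entered the test only because it was high enough on oncogenic Vav1 arrays, so it adds no separate support.

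Of the chemokines, Ppbp, the precursor of a neutrophil attractant, was at 9.16 and 10.75 in oncogenic Vav1 lymph nodes, against 4.95 and 4.76 in GFP lymph nodes. It rose by 5.10 on the log2 scale (SE 0.46, adjusted p = 6.1e-05). The GFP values lay below the 40th percentiles of their arrays (5.70 and 5.69). Measured from the mean of these percentiles, the oncogenic Vav1 mean stood 19.2-fold higher. Pf4, platelet factor 4, was at 8.43 and 9.29 in oncogenic Vav1 lymph nodes, against 7.31 and 7.45 in GFP lymph nodes, a rise of 1.48 (SE 0.28, adjusted p = 0.0045). Both chemokines were thus higher on each oncogenic Vav1 array than on each GFP array, with a larger log2 difference for Ppbp.

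Of the chemokine genes around them on chromosome 5, a group looked at after the values were seen, Cxcl3 (-0.03, SE 0.16, adjusted p = 0.91) and Cxcl1 (-0.09, SE 0.24, adjusted p = 0.84) did not pass in the lymph node. Cxcl5, Cxcl15 and Cxcl2 were too low to be tested. The nearest other gene tested, Rassf6, did not pass either (0.41, SE 0.38, adjusted p = 0.52).

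The subunits of the fibrinogen receptor differed little. Itgb3, the beta3 chain that macrophages, osteoclasts and endothelium also carry, was at 8.74 and 9.08 in oncogenic Vav1 lymph nodes, against 8.10 and 8.14 in GFP lymph nodes. It rose by 0.79 (SE 0.23, adjusted p = 0.040), close to the threshold, and missed it when any of 8 arrays was left out, at adjusted p from 0.050 to 0.19: each array other than oncogenic Vav1 spleen replicate 3 and oncogenic Vav1 lymph node replicate 1. Itga2b, the alphaIIb chain restricted largely to megakaryocytes and early progenitors, was at 7.96 and 8.17 in oncogenic Vav1 lymph nodes, against 7.78 and 7.64 in GFP lymph nodes. It did not pass (0.35, SE 0.21, 95% CI -0.10 to 0.81, adjusted p = 0.28), although the groups did not overlap.

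Both measured genes of the von Willebrand factor receptor rose. Gp5 was at 6.73 and 6.91 in oncogenic Vav1 lymph nodes, against 4.98 and 5.05 in GFP lymph nodes, which is near background. The rise was 1.80 (SE 0.23, adjusted p = 0.00044), and the oncogenic Vav1 mean stood 2.18-fold above the 40th percentile of the GFP arrays. Gp9, the small chain that the complex needs to reach the cell surface, was at 7.81 and 8.42 in oncogenic Vav1 lymph nodes, against 7.04 and 7.08 in GFP lymph nodes, a rise of 1.05 (SE 0.21, adjusted p = 0.0072). These genes thus rose in both arrays, with the 2 oncogenic Vav1 values of Gp9 further apart. The adjusted p of Gp9 was 0.062 and 0.052 when GFP lymph node replicate 1 or 2 was left out.

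The collagen receptor Gp6 was at 5.30 and 6.72 in oncogenic Vav1 lymph nodes, against 3.90 and 4.28 in GFP lymph nodes. It rose by 1.92 (SE 0.38, adjusted p = 0.0058), but 1 of the 2 oncogenic Vav1 arrays and both GFP arrays were near background. It was above the 40th percentile on 3 arrays, all of oncogenic Vav1, and so entered the test through that group. Without GFP lymph node replicate 1 it did not pass (1.73, adjusted p = 0.065), and 3 members then passed in all, against 4 without GFP lymph node replicate 2.

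Every gene was higher in oncogenic Vav1 lymph node replicate 2 (animal ONCO3) than in replicate 1 (ONCO2), in 7 of 7 cases, by 0.18 for Gp5 up to 1.59 for Ppbp. Without replicate 2 the rise of Ppbp was 4.30, and without replicate 1 it was 5.89. With the 4 lymph node arrays alone, 2 members passed (Ppbp and Gp5), Gp6 was too low to be tested, and adjusted p was 0.092 for Pf4, 0.11 for Gp9 and 0.11 for Itgb3, with the same log2 differences.

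In the spleen of GFP mice 6 of the 7 genes lay above the 40th percentile on both arrays and Gp6 on neither, and none of the 7 passed by limma, at adjusted or unadjusted p under 0.05, where 26.8% of all genes tested did at adjusted p. Ppbp was at 9.13, 9.97, 10.00 and 9.16 in oncogenic Vav1 spleens, against 9.22 and 9.50 in GFP spleens, so the groups overlapped (0.21, SE 0.40, 95% CI -0.67 to 1.09). Pf4 was at 8.17, 8.53, 8.83 and 8.27 in oncogenic Vav1 spleens, against 8.18 and 8.04 in GFP spleens (0.34, 95% CI -0.19 to 0.87). Itgb3 lay between 8.62 and 9.34 in oncogenic Vav1 spleens, against 8.31 and 8.70 in GFP spleens (0.37, 95% CI -0.08 to 0.82). The upper ends of these 3 intervals are 2.12-fold, 1.83-fold and 1.76-fold in this fit, and the intervals do not show that the groups were alike.

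The log2 difference in the spleen was -0.05 for Itga2b (95% CI -0.44 to 0.35), -0.13 for Gp9 (95% CI -0.54 to 0.28), 0.27 for Gp5 (95% CI -0.17 to 0.70) and 0.38 for Gp6 (95% CI -0.34 to 1.10). Gp6 was the gene whose groups did not overlap, at 5.50 to 6.02 in oncogenic Vav1 spleens, against 5.49 and 5.24 in GFP spleens, all around background, and 30.3% of all genes tested had oncogenic Vav1 arrays wholly above. The median difference was 0.27 over the 7 genes and 0.00 over all genes tested. Among oncogenic Vav1 spleens, replicate 3 (ONCO3) was the highest for 6 of 7 genes, with Itga2b the exception. The median of the negative control probe sets, a measure of background, was 5.43 to 5.55 on oncogenic Vav1 spleen arrays, against 5.69 and 5.87 on GFP spleen arrays. With it as a covariate, 2 of 7 genes passed in the spleen, Pf4 (1.14, adjusted p = 0.036) and Gp6 (1.48, adjusted p = 0.040), and the difference of Ppbp was 1.43 (adjusted p = 0.093). In that fit 916 genes changed in spleen, against 3596 without the covariate. The control medians of the spleen groups did not overlap, so this covariate and the construct cannot be fully told apart there.

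**Figure D2:**
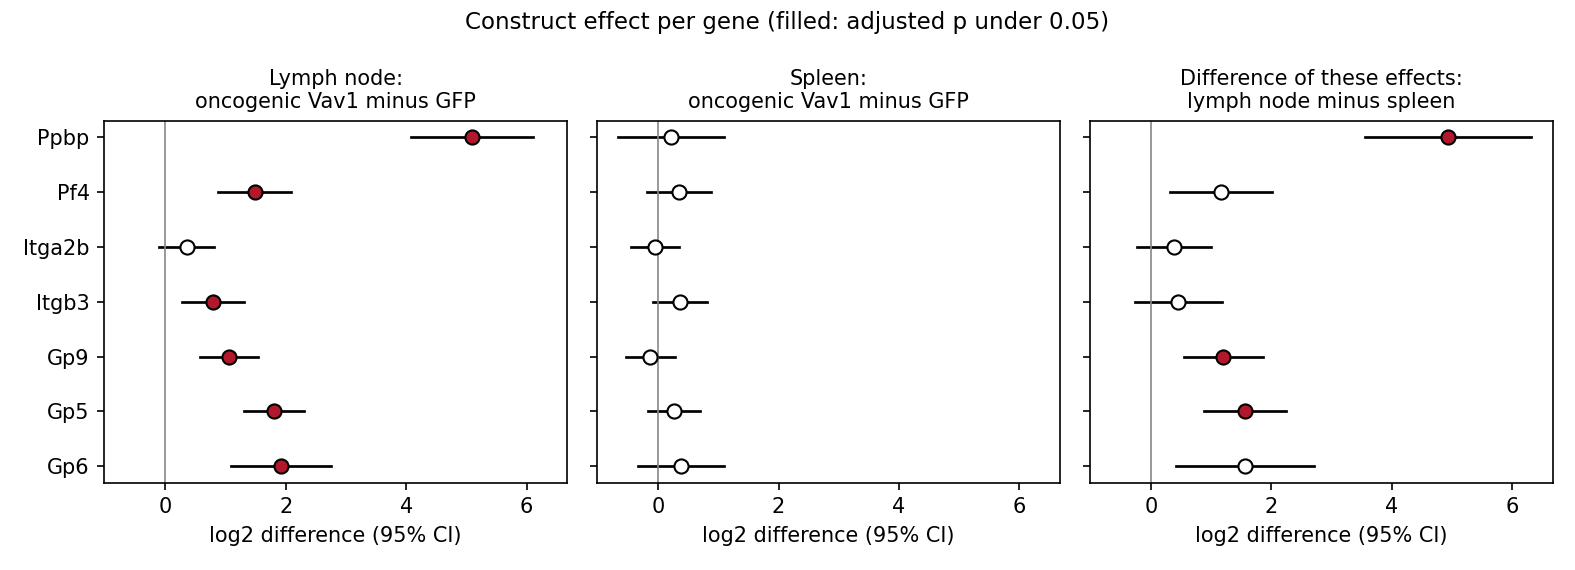
Log2 difference of oncogenic Vav1 minus GFP (horizontal axis, with 95% confidence intervals) for each gene in lymph node and spleen, and the difference of these effects. Filled points passed adjusted p under 0.05. In lymph node 6 of 7 points are filled, in spleen 0, and in the difference 3, with Ppbp at 4.94.

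The effect of the construct was tested for a difference between the tissues as an interaction, with the animal as a random block. It was larger in lymph node for Ppbp (4.94, SE 0.63, adjusted p = 0.0011), Gp5 (1.56, SE 0.31, adjusted p = 0.012) and Gp9 (1.20, SE 0.29, adjusted p = 0.032), 3 of 7 genes, where 0.933% of all genes tested were. The other 4 genes did not pass, Pf4 (1.17, adjusted p = 0.094) and Gp6 (1.56, adjusted p = 0.095) among them, and Itga2b and Itgb3 had intervals that included 0. Ppbp passed with each array left out. Gp5 missed the threshold without GFP spleen replicate 1 (adjusted p = 0.056) or either GFP lymph node array (0.073 and 0.051), which left 1 member each time. Gp9 missed it without any of these, GFP spleen replicate 2 or oncogenic Vav1 spleen replicate 1 or 4, at adjusted p from 0.055 to 0.14. Gp9 also missed it with the negative control median as a covariate (0.83, adjusted p = 0.12). Over the fits with 1 array left out, the difference ranged from 0.70 to 1.53 for Pf4 and from 0.82 to 2.21 for Gp6.

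Set by tissue, the genes were lower in the GFP lymph node than in the GFP spleen, with all arrays below in 7 of 7 cases, against 33.0% of all genes tested. Gp6, counted among the 7, was near background on every GFP array. Ppbp was 4.50 lower on the log2 scale in the lymph node (SE 0.47, adjusted p = 0.00011) and Gp5 was 1.42 lower (SE 0.23, adjusted p = 0.0021). These 2 of 7 passed, where 4.41% of all genes tested were lower. Adjusted p was 0.050 for Gp6, 0.053 for Gp9 and 0.11 for Pf4. The median of the negative control probe sets was 5.87 and 5.69 in GFP spleen, against 5.46 and 5.38 in GFP lymph node. With it as a covariate, Pf4 was at 0.21 and Itgb3 at 0.16, but the control medians of these groups did not overlap either. Over 19 alternatives the difference ranged from -1.46 to -0.0043 for Gp6 and from -0.77 to -0.21 for Gp9. For Ppbp it ranged from -4.64 to -3.21 and for Gp5 from -1.55 to -1.09. This comparison and that of constructs in lymph node share the 2 GFP lymph node arrays, so the low values there enter both.

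Between oncogenic Vav1 lymph nodes and oncogenic Vav1 spleens, none of the 7 genes passed, with 1 at unadjusted p under 0.05 (Gp9, 0.49, SE 0.19), and 0.0373% of all genes tested were called. Ppbp averaged 9.95 in oncogenic Vav1 lymph nodes and 9.57 in oncogenic Vav1 spleens, and the arrays overlapped for all 7 genes, where 7.33% of all genes tested lay wholly above and 8.03% wholly below. The interval of the difference ran from -0.47 to 1.35 for Ppbp and from -0.31 to 0.59 for Gp5. Thus the order of the levels of Ppbp was oncogenic Vav1 lymph node, oncogenic Vav1 spleen, GFP spleen and GFP lymph node, of which only the last stood apart from its neighbour. Without oncogenic Vav1 lymph node replicate 1, the log2 differences of Ppbp, Pf4, Gp9 and Gp6 were 1.13, 0.80, 0.76 and 0.94. Without replicate 2, Ppbp was at -0.45 and Gp6 at -0.45. Each of these fits left 1 array in that group.

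The 3 animals with both tissues show the same in pairs. In the GFP animal CTL2, 7 of 7 genes were lower in the lymph node than in the spleen, by 0.17 for Itgb3 up to 4.46 for Ppbp. In ONCO2 the lymph node was lower for 6 of 7 genes, but by no more than 0.81, the difference of Ppbp. In ONCO3 it was higher for 5 of 7 genes, by up to 0.75 for Ppbp. With 1 GFP animal, these pairs have no test of their own.

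**Figure D3:**
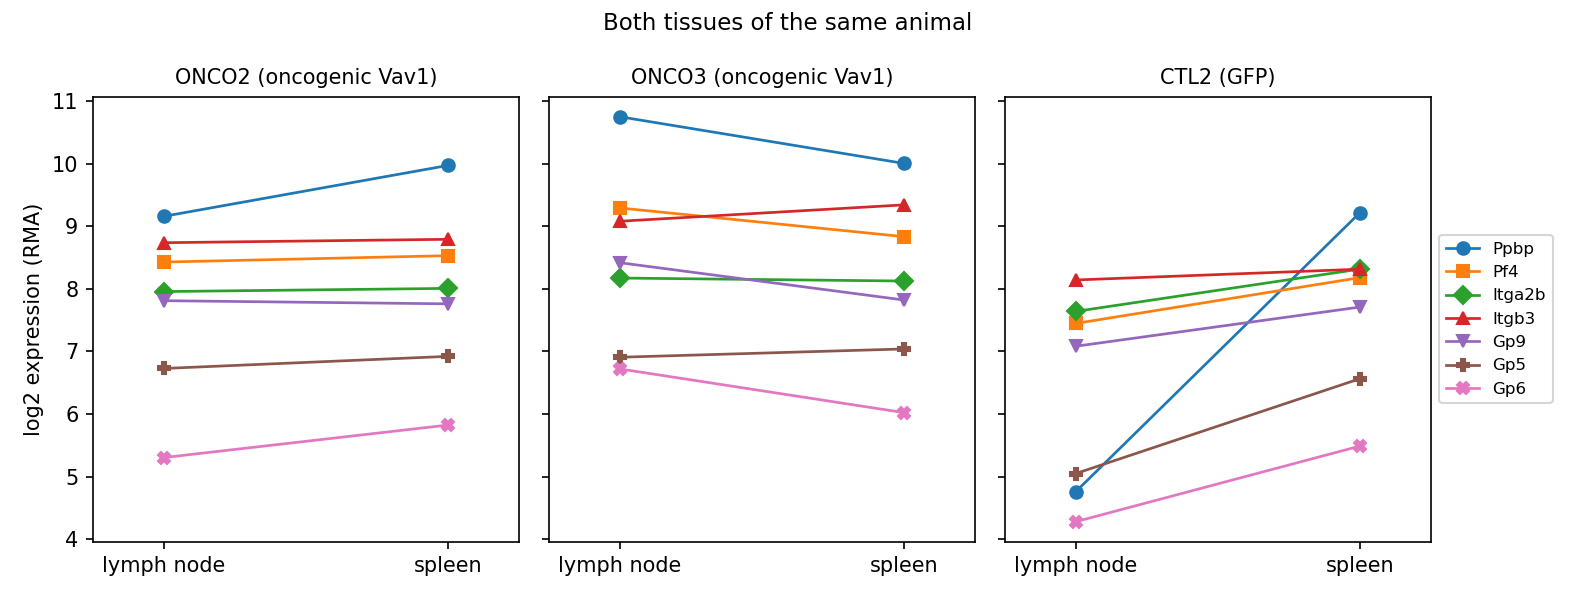
Log2 expression (RMA) of the 7 genes in lymph node (left) and spleen (right) of the 3 animals that gave both, ONCO2 and ONCO3 with oncogenic Vav1 and CTL2 with GFP. Each line joins the arrays of 1 animal. The Ppbp line joins 9.16 and 9.97 in ONCO2, 10.75 and 10.00 in ONCO3, and 4.76 and 9.22 in CTL2.

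Further platelet and megakaryocyte genes were followed in 5 lists by role, 81 entries in all, of which 73 had a probe set and 71 were tested. In the lymph node 13 rose and 6 fell, with a median log2 difference of 0.11, and in the spleen 10 rose and 1 fell, with a median of 0.12. The 13 include F5, which entered the test only through oncogenic Vav1 arrays. Of all genes tested, 7.87% were higher and 10.8% lower in lymph node, and 17.1% were higher and 9.77% lower in spleen.

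Of the surface receptors, 1 of 17 rose and 1 fell in the lymph node. F2rl3, the thrombin receptor PAR4, was at 6.53 and 6.50 in oncogenic Vav1 lymph nodes, against 5.61 and 5.80 in GFP lymph nodes (0.81, SE 0.21, adjusted p = 0.021). Jam3, an adhesion protein that endothelium also carries, was lower (-1.59, SE 0.21, adjusted p = 0.00060). Clec1b, the podoplanin receptor, did not pass (0.93, adjusted p = 0.088). In the spleen P2ry12, the ADP receptor of platelets that microglia and some macrophages also have, rose by 1.07 (SE 0.22, adjusted p = 0.0069), while F2rl3 did not pass.

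Among granule and secreted proteins in the lymph node, 2 of 14 rose and 2 fell. Thbs1, thrombospondin-1, was at 8.07 and 8.83 in oncogenic Vav1 lymph nodes, against 6.25 and 6.58 in GFP lymph nodes (2.04, SE 0.26, adjusted p = 0.00051). F5, coagulation factor V, was at 5.84 and 6.84 in oncogenic Vav1 lymph nodes, against 4.99 and 4.50 in GFP lymph nodes, near background (1.60, SE 0.31, adjusted p = 0.0056). Sparc, a matrix protein also made by stroma, fell by 1.14 (SE 0.18), and F13a1, factor XIII, which macrophages also make, fell by 0.65 (SE 0.18). In the spleen 4 rose, Thbs1 (1.07, SE 0.23), Sparc (1.35, SE 0.15), the tetraspanin Cd63 (1.76, SE 0.28) and the growth factor Pdgfb (0.64, SE 0.20), and none fell.

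Of 12 cytoskeletal genes, 2 rose and 1 fell in the lymph node. Tubb1, the beta tubulin specific to platelets and megakaryocytes, was at 7.52 and 8.53 in oncogenic Vav1 lymph nodes, against 6.01 and 6.08 in GFP lymph nodes (1.98, SE 0.30, adjusted p = 0.0015). In the spleen it lay at 7.41 to 7.99 in oncogenic Vav1 mice, against 7.11 and 7.48 in GFP mice, and did not pass. Its effect was larger in lymph node than in spleen (1.68, SE 0.42, adjusted p = 0.036), as for no other gene of the 5 lists. Plek, pleckstrin of platelets and leukocytes, rose in lymph node (0.96, SE 0.14) and spleen (0.52, SE 0.12), and Cavin2, a caveolar protein of platelets and endothelium, fell in lymph node (-1.56, SE 0.39). Bin2, a membrane-bending protein of blood cells, rose in spleen (0.63, SE 0.18).

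Of 13 signalling and thromboxane genes, 3 rose and 1 fell in the lymph node. Alox12, the 12-lipoxygenase of platelets, was at 6.57 and 7.81 in oncogenic Vav1 lymph nodes, against 5.53 and 5.03 in GFP lymph nodes, near background (1.91, SE 0.38, adjusted p = 0.0062). Thromboxane synthase, Tbxas1, which macrophages also carry, rose in lymph node (1.87, SE 0.22) and spleen (1.17, SE 0.19). Rab27b, a GTPase of granule release, rose in lymph node (1.33, SE 0.41, adjusted p = 0.048), and Prkcq, a kinase that T cells also use, fell (-1.53, SE 0.22). In the spleen Fcer1g (1.51, SE 0.24), the Gp6 partner chain that myeloid cells share, and the adaptor Lcp2 (0.97, SE 0.18) rose, and Rasgrp2 fell by 0.90 (SE 0.17).

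Of 15 transcription factor genes tested, 5 rose and 1 fell in the lymph node, and none passed in the spleen, with 2 at unadjusted p under 0.05. Gfi1b, a repressor of both megakaryocytes and red cell precursors, was at 8.35 and 9.81 in oncogenic Vav1 lymph nodes, against 7.30 and 7.08 in GFP lymph nodes (1.89, SE 0.40, adjusted p = 0.0088). Zfpm1 (1.61, SE 0.40), Klf1 (1.94, SE 0.53) and Myb (0.78, SE 0.17) rose, and so did Gata1 (1.48, SE 0.46, adjusted p = 0.047), which is named after its value was seen. Of these, Klf1 is a factor of red cells rather than of megakaryocytes. Fli1, also named after its value was seen, fell by 0.65 (adjusted p = 0.038), and is a factor of endothelium and lymphocytes as well. Of the 15 lymph node differences, 12 were positive. Those that did not pass included Nfe2 (1.58), Tal1 (0.93), Mef2c (0.01), Runx1 (-0.17) and Gata2 (-0.19), likewise named after their values were seen. Whether the rises came from megakaryocytes or from red cell precursors was not tested.

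**Figure D4:**
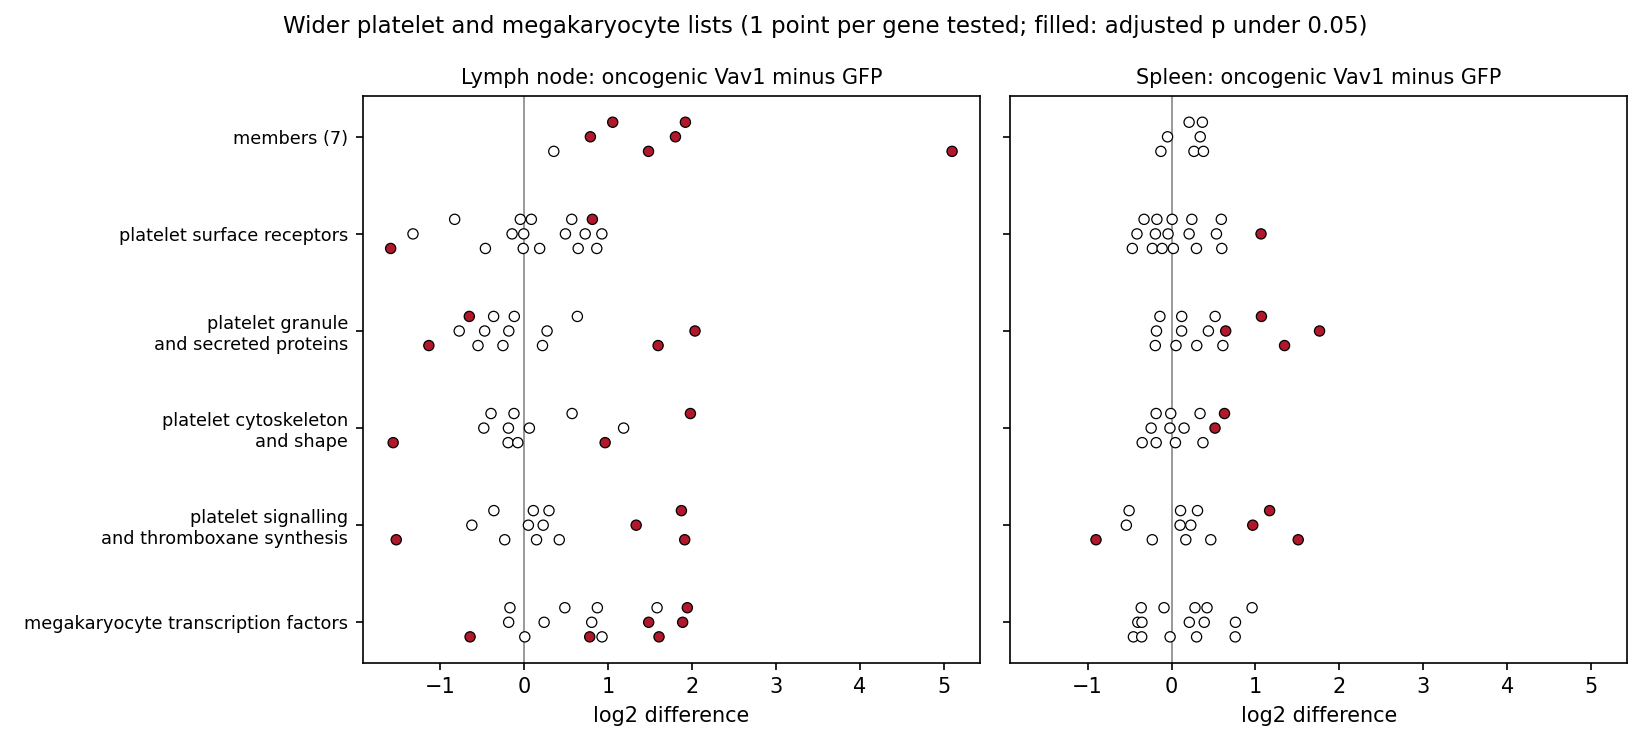
Log2 difference of oncogenic Vav1 minus GFP (horizontal axis) in lymph node (left) and spleen (right) for each gene tested of the 7 measured members and of 5 wider lists by role. Filled points passed adjusted p under 0.05. In lymph node the lists hold 13 filled points to the right of 0 and 6 to the left, with Ppbp farthest right at 5.10.

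By pattern over the 10 arrays, the genes outside the set most like the mean of the 7 were Jchain (Pearson r = 0.988), the joining chain of antibodies from plasma cells, Tubb1 (0.983), F5 (0.964), Alas2 (0.959), the first enzyme of haem synthesis in red cell precursors, Alox12 (0.953) and Tbp (0.952), the TATA-binding protein. Tubb1, F5 and Alox12 are platelet genes of the wider lists, of which F5 entered the test only through oncogenic Vav1 arrays. The 10 points share animals and groups and include the 2 low GFP lymph node arrays. Over the other 8 arrays r was 0.951 for Tubb1, 0.954 for F5, 0.936 for Jchain and 0.816 for Alas2. That mean follows Ppbp closely, since Ppbp ranged most widely over the arrays, from 4.76 to 10.75. Within the set each gene is part of the mean, which raises its r, most of all for Ppbp, and r with that mean over the 10 arrays ran from 0.641 for Itga2b to 0.986 for Ppbp, and over the 8 arrays Itga2b was at 0.123.

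Red cell genes rose with the platelet genes in the lymph node, in 16 of 17 erythroid genes tested, with a median log2 difference of 3.77. The mean of the 17 was 8.45 and 10.91 in oncogenic Vav1 lymph nodes, against 6.24 and 6.16 in GFP lymph nodes. In the spleen it was 8.36 to 9.85 with oncogenic Vav1, against 6.99 and 8.19 with GFP, and 0 of 17 passed, with 7 at unadjusted p under 0.05. The band 3 gene Slc4a1 (3.77, SE 0.55) and Alas2 (3.73, SE 0.63) were among those that rose in the lymph node. The highest array of all was oncogenic Vav1 lymph node replicate 2 for the erythroid mean, as for the mean of the 7 platelet genes (8.48), while in the spleen replicate 2 led the erythroid mean and replicate 3 the platelet mean (8.17). The part of red cells and their precursors in the platelet result was not tested.

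Genes of other cell types were followed as well, and their part in these results was not tested. Of all genes tested, 7.87% were higher and 10.8% lower in lymph node, and 17.1% were higher and 9.77% lower in spleen. In the lymph node the endothelial list had 5 of 11 genes lower and 0 higher, at 7.27 and 7.45 on average with oncogenic Vav1, against 8.00 and 8.07 with GFP, and the T cell list had 6 of 12 lower. Neutrophil genes rose in 10 of 13 cases in both tissues, and 16 of 16 proliferation genes rose in both. The 10 include Camp, Mpo and Mmp8, which were near background on every GFP array and entered the test only through oncogenic Vav1 arrays. Macrophage and monocyte genes, a second source of Itgb3, had 1 of 12 higher and 1 lower in lymph node, and 7 higher and 1 lower in spleen. Osteoclast genes had 0 of 6 higher and 1 lower in lymph node. Mast cell and basophil genes had 1 of 6 higher there and 1 lower. The higher one, Mcpt8, was also near background on every GFP array and entered the test only through oncogenic Vav1 arrays. Haematopoietic progenitor genes had 1 of 9 higher and 2 lower in lymph node, and B cell genes 0 of 10 higher and 2 lower.

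**Figure D5:**
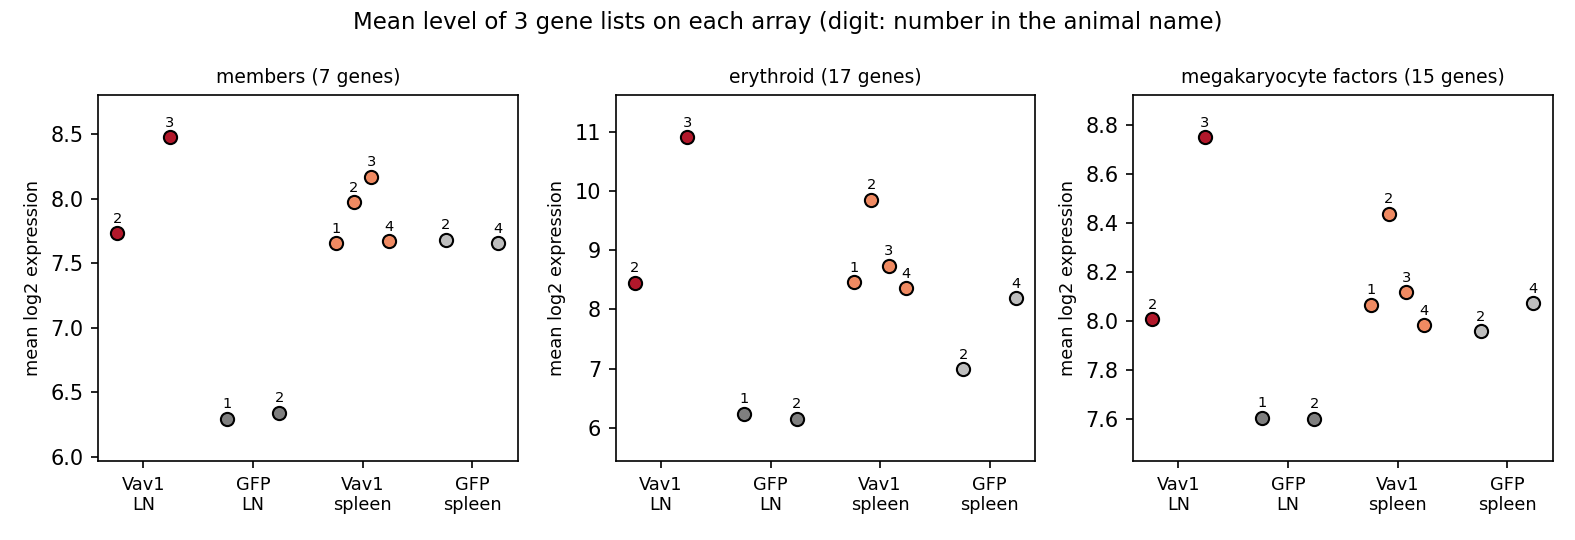
Mean log2 expression on each array of the 7 platelet genes, of 17 erythroid genes and of 15 genes of the megakaryocyte factor list. Groups are oncogenic Vav1 lymph node, GFP lymph node, oncogenic Vav1 spleen and GFP spleen. The factor list includes Klf1, a factor of red cells. The digit beside a point is the number in the animal's name. The 2 GFP lymph node arrays are the lowest in each panel, at 6.30 and 6.34 for the platelet genes, and ONCO3 lymph node is the highest, at 8.48.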

How the data were processed

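The deposited values are log2 expression levels from RMA; the submitters' processing notes name R 3.6.3. The array annotation step, any filter and a genome build are not given in the sources used here. Values ran from 2.42 to 13.9, and array medians from 6.27 to 6.41. The platform table gave exactly 1 symbol to 19572 of 29129 probe sets and none to 9557, and each of 19505 genes was read from its probe set with the highest mean. Genes had to exceed, on 2 or more arrays, the 40th percentile of all probe sets there (5.64 to 5.84), which 13393 did.

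The 4 groups shared 1 model in limma (version 3.58.1, with statmod 1.5.0 under R 4.3.3; eBayes with a variance trend, two-sided tests, 6 residual degrees of freedom, Benjamini-Hochberg adjustment). Tissue and interaction contrasts had the animal as a random block (correlation -0.11). The code was tested on simulated data. The labels name separate animals, and the small number of arrays limits the precision. The members, lists and tests were chosen with earlier results of these data known. Named genes were the members, up to 4 genes with the smallest p per wider list and comparison of constructs, up to 2 defining genes per marker list, and the 6 most alike in pattern. Alternatives changed the filter, normalization, array weights, blocks, arrays used, each array left out, and a covariate from negative control probe sets.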

Additional observations from a re-analysis of the deposited data

Results flagged for a closer look

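For 3 genes the effect of oncogenic Vav1 differed between the tissues by a test of the difference itself, the interaction in limma with the animal as a random block. The effect in lymph node minus that in spleen was 4.94 for Ppbp (adjusted p = 0.0011), 1.56 for Gp5 (adjusted p = 0.012) and 1.20 for Gp9 (adjusted p = 0.032), on the log2 scale. All arrays of oncogenic Vav1 lay above those of GFP in lymph node for each of them, and the groups overlapped in spleen. Ppbp and Gp5 were near background in the GFP lymph nodes. Ppbp passed with each array left out, and it was the 1 member that passed without GFP spleen replicate 1 or either GFP lymph node array. Gp9 did not pass with the negative control median as a covariate (0.83, adjusted p = 0.12). No array of the oncogenic Vav1 spleen, the 1 group of 4, stood apart from the others by Dixon's test for any of the 7 genes.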

How the results depend on the processing

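Over the members' single values, 608 kept direction and side of the threshold under the alternatives, 25 lost a call, 27 gained one and 18 changed sign. The causes were not tested. In lymph node Ppbp (4.30 to 5.89) and Gp5 (1.71 to 1.89) passed in all 20 alternatives. With the negative control median as a covariate, 2 members rose in spleen, 916 genes changed there (3596 as reported) and 94 differed between oncogenic Vav1 tissues (5 as reported), and the sign turned for Itga2b (0.29) and Gp9 (0.31) in spleen and for Pf4 (0.21) and Itgb3 (0.16) between GFP tissues. Under it spleen Ppbp was at 1.43 (0.21 as reported), without passing, and the difference between tissues no longer passed for Gp9 (0.83). Array weights gave 1264 genes changed in lymph node (2500 as reported), and 5 members lower (2 as reported) and 3879 genes changed (2144 as reported) between GFP tissues, with Itga2b at 0.0015 between oncogenic Vav1 tissues. In the lymph node arrays alone, 2 members rose (6 as reported) and 469 genes changed, with fewer arrays to estimate the spread. Without the animal block, 4 members were lower between GFP tissues and 9 genes differed between oncogenic Vav1 tissues, and without a filter 13 did. Centring each array on its median put spleen Itga2b at 0.058. It also moved the share of higher genes among those changed to 79.8% in spleen (63.6% as reported) and to 84.0% between GFP tissues (72.5% as reported). The replicate numbers do not pair the arrays by animal: same-numbered arrays of the constructs come from different animals. Their deviations correlated at -0.06 in lymph node and at 0.04 and 0.30 in spleen. Between oncogenic Vav1 spleen and lymph node, same-numbered arrays, also of different animals, were at 0.33 and 0.51. Arrays of the same animal were at -0.51 for ONCO2 and 0.02 for ONCO3 there. In a group of 2 arrays the deviations mirror each other, so these values say little about pairing. A fit with the replicate block left 6 members higher in lymph node, 0 in spleen and 3 in the difference between tissues, gave 4 lower between GFP tissues, and between oncogenic Vav1 tissues gave 0 genes changed and Itga2b at 0.15. Leaving out 1 array at a time gave 3 to 6 members and 943 to 4651 genes in lymph node, 0 members and 1079 to 5521 genes in spleen, 1 to 5 members and 326 to 4205 genes in the difference, 2 to 5 members and 775 to 4281 genes between GFP tissues, and 0 to 4 members and 3 to 3810 genes between oncogenic Vav1 tissues. In these fits a group left with 1 array was assumed to vary like the others. Spleen Itga2b then ranged from -0.23 to 0.13. Between oncogenic Vav1 tissues the ranges were -0.45 to 1.13 for Ppbp, -0.033 to 0.80 for Pf4, -0.13 to 0.10 for Itga2b, -0.13 to 0.22 for Itgb3, -0.0069 to 0.29 for Gp5 and -0.45 to 0.94 for Gp6.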
